A study of Mus musculus with 12 samples.

Results

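The 70 genes described here encode heat shock proteins and their J-domain partners. They comprise every gene read by a probe set with a single symbol that begins with Hspa, Hspb and a digit, Hspd, Hspe, Hsph, Hsp90 or Dnaj, with pseudogene symbols left out, and they were drawn from 19937 genes measured on the same arrays. Where several probe sets carried the same symbol, the brightest on average was taken. By family the genes were 12 Hspa, 8 Hspb, 3 Hsp90 and Hsph, 2 Hspd and Hspe, 4 Dnaja, 13 Dnajb and 28 Dnajc. Their levels placed 12 of the 70 below the median gene, and these may lie near the background of the array. Hsp90ab1 and Hsf1 were not analysed here, and Hspa1b only through a probe set that it shares with Hspa1a, outside the 70.

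Heart RNA from 3 groups of mice was compared, with 4 arrays in each group. Control mice and mice with either of 2 mutant forms of IDH2, R140Q or R172K, shared a background mixed from C57BL/6, 129/sv and Balb/c. IDH2 is the mitochondrial isocitrate dehydrogenase, and both mutant forms are known to make D-2-hydroxyglutarate. Mutant mice were given 2 mg of 4-hydroxytamoxifen for 3 days at an age of 5 weeks, per the labels. This drug is commonly used to switch on a Cre recombinase, but the sources used here do not name the Cre driver, what control mice received, when hearts were taken or the animals' sex. In either comparison with control, the mutation and the drug or Cre cannot be told apart. The labels number the arrays as replicates and do not say that each came from its own animal, so p-values reflect only how these samples spread, which may be technical. A heart below stands for 1 array.

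Heat shock proteins are molecular chaperones that hold unfolded protein chains, help them to fold, or pass them on for degradation. HSP70 proteins work in cycles of ATP binding and hydrolysis. J-domain proteins, encoded by the Dnaj genes, bring substrates to HSP70 and speed up hydrolysis, and nucleotide exchange factors such as the HSP110 proteins reset the cycle. HSP90 completes the folding of selected clients, the HSP60 and HSP10 chamber folds proteins inside mitochondria, and the ATP-independent small heat shock proteins are abundant in heart muscle, where they bind to sarcomere and cytoskeletal proteins. Genes of the cytosolic set are classic targets of heat shock factor HSF1, and those of the endoplasmic reticulum (ER) are targets of the unfolded protein response.

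All values are log2 intensities, differences are in log2, and a gene counted as changed at a limma p-value under 0.05 after Benjamini-Hochberg adjustment over all 19937 genes. Array medians lay between 74.8 and 78.0 intensity units. Idh2 itself differed by -0.30 in R140Q (adjusted p = 0.301) and by -0.36 in R172K hearts (adjusted p = 0.109), which does not check the labels. The tissue differed in its cell markers as well. Of 10 cardiomyocyte markers, 4 fell in R172K hearts, and their summed intensity was 96774 to 101199 in control, 90504 to 94555 in R140Q and 73979 to 90079 in R172K hearts. Of 10 fibroblast markers, 5 rose in R172K hearts (summed intensity 12003 to 16665 in control, 12549 to 18310 in R140Q and 15061 to 27202 in R172K). Of 10 endothelial markers, 3 rose in R140Q (10814 to 11520 in control, 13319 to 13782 in R140Q) and 2 in R172K hearts (11468 to 13476). In R172K hearts 2 of 9 smooth muscle and pericyte, 2 of 9 macrophage and 3 of 8 epicardial markers also rose, and 1 of 9 skeletal muscle and 1 of 9 atrial markers fell. Of all genes, 6.23% rose and 6.78% fell in R172K hearts, and 1.08% rose in R140Q hearts. A count of 1 of 9 lies near that share and says nothing particular about its list. The lymphocyte (7 markers), lung (8), adipocyte (7) and erythroid (2) lists held no gene that changed from control in limma's test, with 1, 0, 2 and 0 genes at an unadjusted p under 0.05 in R140Q and 0, 0, 2 and 0 in R172K hearts. Single arrays stood apart: the atrial gene Myl7 reached 12.49 in control 3 and 11.36 in R172K 3, against 5.23 to 9.21 in the other 10 arrays, and the lung gene Sftpc reached 11.57 in R140Q 4 against 4.66 to 5.51 elsewhere. Atrial signal also differed by group. For Myl7 every R140Q heart lay below every control heart (-3.52, limma adjusted p = 0.109). R172K hearts lay wholly above R140Q hearts for Myl7 (3.59, adjusted p = 0.113) and Myl4 (3.52, adjusted p = 0.0458). Between the mutants, 1 of 9 atrial, 1 of 10 fibroblast and 1 of 8 epicardial markers were called higher in R172K (0.487% of all genes). In whole hearts, fewer cells of a type and less RNA per cell cannot be told apart, and the part of cell makeup in the results was not tested.

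In R172K hearts 15 of the 70 chaperone genes changed from control, 7 higher and 8 lower, which is 21.4% against 13.0% of all genes (6.23% higher and 6.78% lower). In R140Q hearts 2 of the 70 changed, 1 higher (Hsp90aa1) and 1 lower (Dnajc25), which is 2.86% against 2.20% of all genes (1.08% higher and 1.12% lower). Between the mutants 5 of the 70 differed, 1 higher and 4 lower in R172K, which is 7.14% against 1.48% of all genes (0.487% higher and 0.998% lower). The comparisons with control share the same 4 control arrays. Across the set, 17 genes changed in at least 1 comparison, 53 in none, and only Dnajc25 changed in both mutants. The median difference of the 70 genes lay near 0 in each comparison: 0.034 in R140Q (0.0030 over all genes), -0.024 in R172K (-0.0033) and -0.040 between the mutants (-0.0032).

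The counts moved with single arrays. Calls over all genes in the same fits are not given here, so these moves say nothing particular about chaperones. Against control, 7 genes changed in R172K hearts once R172K 1 was left out, 9 once R172K 2 was, 8 once control 1, control 2 or control 4 was, and 20 once R172K 3 was. For R140Q it was 0 without control 1, control 2, R140Q 1, R140Q 3 or R140Q 4, 1 without control 3, control 4, R140Q 2, R172K 1 or R172K 2, 5 without R172K 3 and 4 without R172K 4. Between the mutants it was 0 without R140Q 1, R140Q 4, R172K 1 or R172K 2, 1 without R140Q 3, 2 without any 1 control array, 3 without R140Q 2 or R172K 4, and 13 without R172K 3. Without control 3, R172K 3 and R140Q 4 together, which had the most atrial or lung signal, the counts were 19 for R172K, 0 for R140Q and 6 between the mutants by limma's test. Among the arrays that remained, Myl7 was still lower in every R140Q heart than in any other heart. In the fit to all arrays 17 of the 70 had an unadjusted limma p under 0.05 in R140Q, 23 in R172K and 20 between the mutants. Of all 19937 genes, 3394, 5302 and 3256 did so in the same order. These are the background for every unadjusted count of a family or list in this report.

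**Figure D1:**
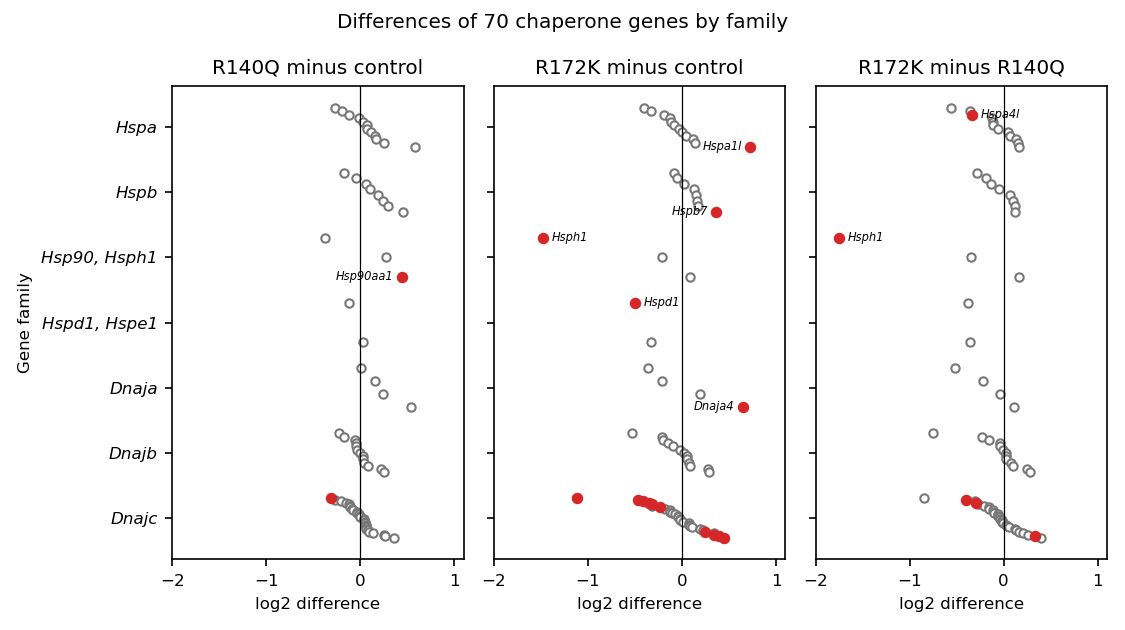
Log2 differences of the 70 chaperone genes (horizontal axis) by gene family (vertical axis) for R140Q minus control, R172K minus control and R172K minus R140Q, each from means of 4 arrays. Filled points passed limma's test at an adjusted p under 0.05, which 2, 15 and 5 genes did, and Hsph1 lies farthest to the left in both R172K panels, at -1.48 and -1.75.

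By the arrays themselves, all 4 R172K values lay above all 4 control values in 7 of the 70 genes (7.47% of all genes did so) and below them in 9 (8.72% of all genes). For R140Q the counts were 11 above (7.79% of all genes) and 4 below (7.04%). Between the mutants, R172K lay wholly above R140Q in 1 gene (3.07% of all genes) and wholly below in 8 (4.64%).

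**Figure D2:**
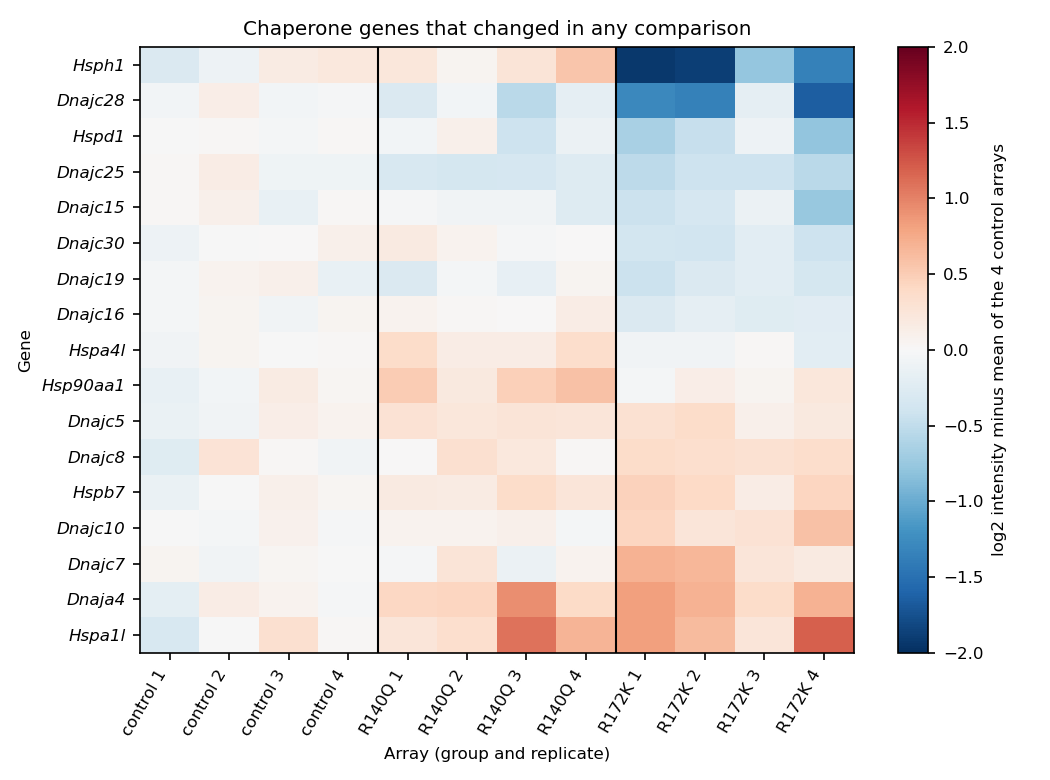
Heat map of the 17 chaperone genes that changed in any comparison (rows) over the 12 arrays (columns), coloured by log2 intensity minus the mean of the 4 control arrays. R172K 3 is the palest R172K column in most rows, for example at 7.86 for Hsph1 against 6.70 to 7.28 in the other 3 R172K arrays.

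Hsph1 encodes HSP105, an HSP110-family nucleotide exchange factor that releases ADP from HSP70. Control hearts read 8.34, 8.53, 8.79 and 8.84, R140Q hearts 8.85, 8.68, 8.88 and 9.18, and R172K hearts 6.70, 6.74, 7.86 and 7.28. Every R172K heart lay below every other heart, and R140Q hearts overlapped with control. Hsph1 fell by 1.48 ± 0.22 (SE) in R172K against control (limma adjusted p = 0.00254), to 0.358 of the control level, and was lower in R172K than in R140Q by -1.75 ± 0.22 (adjusted p = 0.0131). Its difference in R140Q was 0.27 (adjusted p = 0.608). The fall against control passed the test in each alternative tried, with values from -1.74 to -1.33. The difference between the mutants missed the threshold without R140Q 1 (adjusted p = 0.0546), R140Q 4 (0.0544), R172K 1 (0.053) or R172K 2 (0.0506), and with the mutant arrays alone in the fit (0.0639).

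Heat shock factors bind inverted repeats of the 5-base unit NGAAN. GAANNTTC followed directly by NNGAA holds 3 such units and is called the 3-unit motif here. A search on both strands of the RefSeq promoter windows (GRCm38.p6, 300 bases that end shortly after each annotated start) found it in 0.603% of 32851 windows, in 0.662% of the 27025 genes these belong to, and in 4 of the 57 chaperone genes that the promoter table holds (7.02%), namely Hsph1, Hspd1, Hspe1 and Dnajb6. Matches could overlap each other. These 30-base stretches are shown because they hold the motif and because Hsph1 and Hspd1 fell in R172K hearts. Capitals mark the matched letters, read 5′ to 3′ on the gene's strand. The Hsph1 stretch (chr5:149636279-149636308, minus strand) lies just after the annotated start, and the Dnajb6 stretch is at chr5:29735844-29735873 on the plus strand. Hspd1 (minus strand) and Hspe1 (plus strand) are neighbours on opposite strands, and the same bases, chr1:55088053-55088082, serve both windows with 2 overlapping matches.
Hsph1: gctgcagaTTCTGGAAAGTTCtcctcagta
Dnajb6: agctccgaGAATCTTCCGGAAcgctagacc
Hspd1: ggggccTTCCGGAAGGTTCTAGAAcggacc
Hspe1: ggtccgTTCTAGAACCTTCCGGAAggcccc
Shorter stretches of 2 units, GAANNTTC or TTCNNGAA, were counted together. Either occurs in 15.1% of all windows, in 17% of genes and in 15 of the 57 chaperone genes (26.3%). Among the 15 are Hspa1a, Dnaja1, Dnaja4, Dnajb4, Hspb1, Hspb6 and Hspb8. A match is a description of letters and does not show that a factor binds there.

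Hspa4l, a second HSP110-family gene, differed between the mutants. Control hearts read 8.74, 8.86, 8.81 and 8.83, R140Q hearts 9.18, 8.96, 8.96 and 9.16, and R172K hearts 8.73, 8.74, 8.84 and 8.59. All R140Q values lay above all others. R172K was lower than R140Q by -0.34 ± 0.0737 (SE, limma adjusted p = 0.0469), while the differences from control were 0.25 in R140Q (adjusted p = 0.0929) and -0.08 in R172K (adjusted p = 0.535). The difference between the mutants lost its call without any 1 array other than R172K 3, at adjusted p-values from 0.0534 (without R140Q 2) to 0.144 (without R172K 1). Hspa4, the third of this family here, had a difference of 0.12 in R140Q (adjusted p = 0.364) and no measurable one in R172K hearts (adjusted p = 1).

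Hsp90aa1, the stress-inducible cytosolic HSP90, rose in R140Q hearts. Control hearts read 9.91, 9.9995, 10.21 and 10.08, R140Q hearts 10.56, 10.25, 10.52 and 10.63, and R172K hearts 10.004, 10.19, 10.10 and 10.27. All R140Q hearts lay above all control hearts, although the lowest, at 10.25, was close to the highest control. The rise was 0.44 ± 0.0954 (SE, limma adjusted p = 0.0367), or 1.36-fold. In R172K hearts Hsp90aa1 differed from control by 0.090 (adjusted p = 0.612). It differed from R140Q by -0.35 (adjusted p = 0.0872), which passed without R140Q 2 (0.047). The R140Q call ended without control 1 (adjusted p = 0.115), control 2 (0.104), control 4 (0.0656), R140Q 1 (0.105), R140Q 3 (0.108), R140Q 4 (0.089) or R172K 2 (0.0509).

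The inducible HSP70 gene Hspa1a and the HSP40 genes Dnajb1 and Dnaja1, whose products start its cycle, had no called difference and a wide spread in control hearts. Hspa1a read 7.01, 6.60, 8.82 and 8.17 in control, 7.70, 7.87, 8.23 and 7.43 in R140Q, and 7.23, 7.21, 7.09 and 7.46 in R172K hearts. Dnajb1 read 7.21, 7.30, 8.66 and 8.19 in control, 8.23, 7.94, 8.30 and 7.77 in R140Q, and 7.31, 7.30, 7.11 and 7.52 in R172K hearts. Dnaja1 read 9.22, 9.09, 9.99 and 9.65 in control, 9.68, 9.48, 9.83 and 9.58 in R140Q, and 9.07, 8.91, 9.21 and 9.31 in R172K hearts. In all 3 genes control 3 was the highest of the 12 arrays and control 4 the second highest of the controls. The control SD was 1.03 for Hspa1a, 0.70 for Dnajb1 and 0.41 for Dnaja1, against a median SD within groups of 0.133 for the 70 genes and 0.128 for all genes. Control 3 is also the array with the highest Myl7, and the part of atrial tissue in this spread was not tested.

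For Dnajb1 and Dnaja1 every R172K heart lay below every R140Q heart. The differences between the mutants were -0.75 ± 0.27 (SE, limma adjusted p = 0.18) for Dnajb1 and -0.52 ± 0.17 (adjusted p = 0.148) for Dnaja1, neither of which passed. For Hspa1a the difference between the mutants was -0.56 ± 0.38 (adjusted p = 0.529), and the groups overlapped. Against control the R172K differences were -0.40 (adjusted p = 0.568) for Hspa1a, -0.53 (adjusted p = 0.237) for Dnajb1 and -0.36 (adjusted p = 0.196) for Dnaja1.

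Hspa1l, an HSP70 gene that neighbours Hspa1a on chromosome 17, rose in R172K hearts. It read 7.29, 7.60, 7.93 and 7.63 in control, 7.86, 7.95, 8.70 and 8.30 in R140Q, and 8.44, 8.25, 7.85 and 8.81 in R172K hearts. R172K 3 lay within the control range and the other 3 R172K hearts above it. The rise was 0.72 ± 0.22 (SE, limma adjusted p = 0.0444), or 1.65-fold, and the R140Q difference of 0.59 (adjusted p = 0.178) did not pass. The R172K call ended without control 1 (adjusted p = 0.127), control 2 (0.0965), control 4 (0.0852), R140Q 4 (0.0587), R172K 1 (0.11), R172K 2 (0.0768) or R172K 4 (0.108).

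On the probe sets used, the other cytosolic HSP70 genes did not pass in either comparison with control. Hspa8, the constitutive HSC70, stood at 12.89 ± 0.047 (SD, n = 4) for control hearts, at 12.92 ± 0.054 for R140Q and at 12.86 ± 0.087 for R172K on the probe set used. Another of its probe sets rose by 0.72 in R172K hearts (limma adjusted p = 0.0324 over all 34760 probe sets), as given further on. Whether Hspa8 changed therefore depends on the probe set. Over all 12 Hspa genes, R140Q differences ran from -0.27 to 0.59 and R172K differences from -0.40 to 0.72, with Hspa1l at the top of both ranges. In R140Q hearts none of the 12 passed limma's test, and 3 had an unadjusted p under 0.05.

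**Figure D3:**
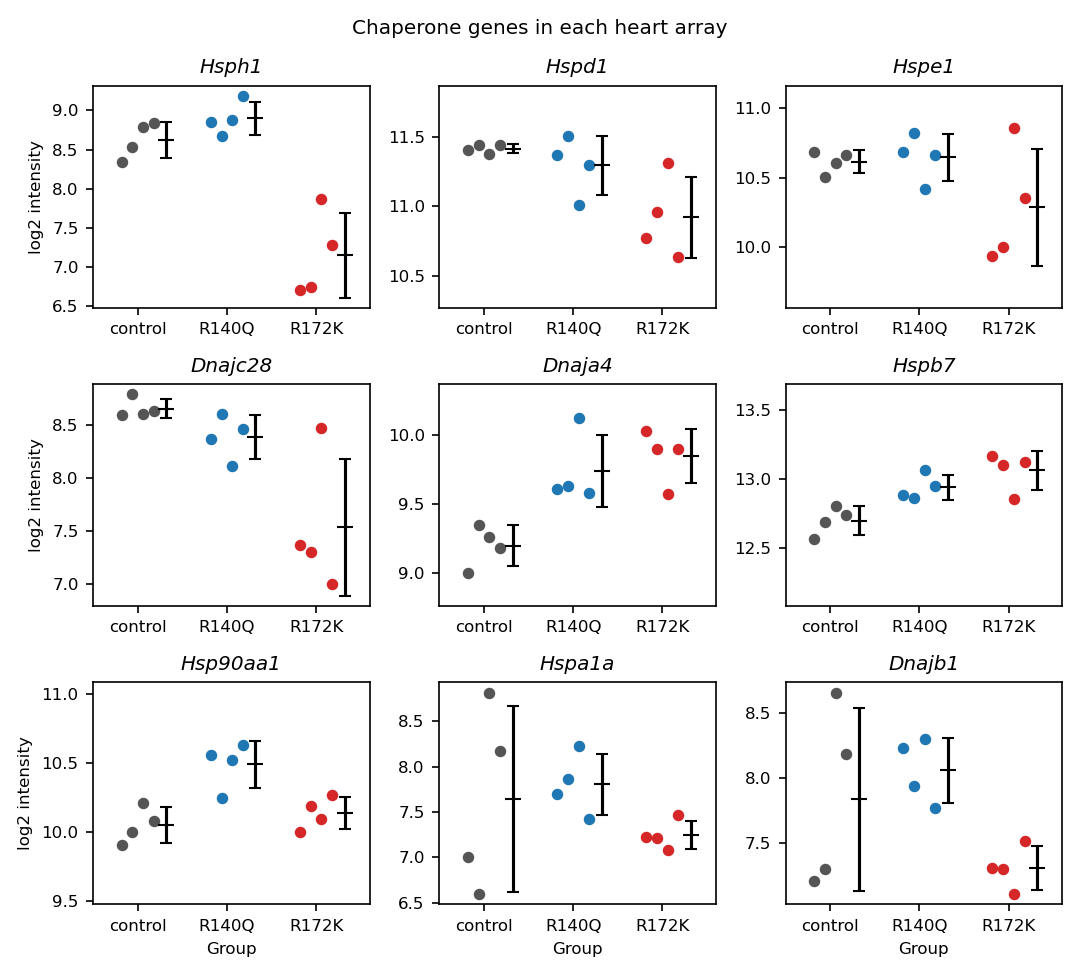
Log2 intensity (vertical axes, scaled per gene) of 9 chaperone genes in each of the 4 control, 4 R140Q and 4 R172K arrays; points are arrays, horizontal lines are means and bars are SD. Hsph1, Hspd1 and Dnajc28 sit lowest in R172K hearts, Hsp90aa1 is highest in R140Q hearts, and the control arrays of Hspa1a spread from 6.60 to 8.82.

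Of 9 chaperone genes of mitochondria, 5 fell in R172K hearts, where 6.78% of all genes fell. The group (Hspa9, Hspd1, Hspe1, Dnaja3, Dnajc11, Dnajc15, Dnajc19, Dnajc28 and Dnajc30) was put together by the known location of the proteins after the values had been seen, so its counts are a description. In R172K against control 0 of the 9 rose, 8 of the 9 differences were negative (10154 of all 19937 genes), and the median was -0.33. Against R140Q all 9 differences were negative (10193 of all 19937 genes), with a median of -0.30, and 1 of them, Dnajc30, passed. In R140Q against control the median was -0.012, and none of the 9 passed limma's test (1 had an unadjusted p under 0.05). Over the 9 genes, R172K differences ran from -1.11 (Dnajc28) to 0.19 (Dnajc11, a protein linked to the cristae-organising complex).

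Hspd1 (HSP60) and Hspe1 (HSP10) form the folding chamber of the matrix and share the head-to-head promoter shown above. Hspd1 read 11.41, 11.45, 11.38 and 11.45 in control, 11.37, 11.51, 11.01 and 11.30 in R140Q, and 10.77, 10.96, 11.31 and 10.63 in R172K hearts. All R172K hearts lay below all control hearts, R172K 3 by the least. Hspd1 fell by 0.50 ± 0.13 (SE, limma adjusted p = 0.0298), to 0.709 of control, and its difference from R140Q was -0.38 (adjusted p = 0.179; 0.0172 without R172K 3). The call against control ended without control 1 (adjusted p = 0.0666), control 2 (0.0737), control 3 (0.0546), control 4 (0.0665), R172K 1 (0.0898), R172K 2 (0.0589) or R172K 4 (0.0719).

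Hspe1 read 10.69, 10.50, 10.61 and 10.66 in control, 10.69, 10.82, 10.42 and 10.66 in R140Q, and 9.94, 10.002, 10.86 and 10.35 in R172K hearts. Here R172K 3 was the highest of all 12 arrays, while the other 3 R172K hearts lay below every control heart. Its R172K difference of -0.33 ± 0.17 (SE, limma adjusted p = 0.236) did not pass. Hspa9, the mitochondrial HSP70, had a difference of -0.13 in R172K (adjusted p = 0.467) and of -0.012 in R140Q hearts (adjusted p = 0.971).

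Dnajc28, a little-studied mitochondrial J protein, had the second largest fall of the 70 genes. It read 8.59, 8.78, 8.60 and 8.62 in control, 8.37, 8.60, 8.11 and 8.46 in R140Q, and 7.37, 7.30, 8.47 and 7.01 in R172K hearts. R172K 3 lay just below the control range and more than a full log2 unit above the other R172K hearts. Dnajc28 fell by 1.11 ± 0.24 (SE, limma adjusted p = 0.0113), to 0.462 of control, and this call held without any 1 array. The difference from R140Q was -0.85 (adjusted p = 0.096), and -1.16 without R172K 3 (adjusted p = 0.00049). Gart, its neighbour in the genome, had a difference of -0.10 in R172K hearts (adjusted p = 0.378).

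Dnajc30 encodes a J protein of the inner membrane known to act on complex I and ATP synthase. It read 8.41, 8.50, 8.52 and 8.62 in control, 8.68, 8.58, 8.48 and 8.52 in R140Q, and 8.14, 8.12, 8.29 and 8.09 in R172K hearts, each R172K value below all others. It fell by 0.35 ± 0.0701 (SE, limma adjusted p = 0.00861) against control, in each alternative tried, and its difference from R140Q was -0.40 ± 0.0701 (adjusted p = 0.0275). The latter call ended without R140Q 1 (adjusted p = 0.0814), R140Q 3 (0.0505), R140Q 4 (0.0732), R172K 1 (0.0998) or R172K 2 (0.0876).

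Dnajc19 and Dnajc15 both encode J proteins of the import motor side of the inner membrane; mutation of human DNAJC19 causes a dilated cardiomyopathy with ataxia. Dnajc19 read 8.33, 8.44, 8.46 and 8.23 in control, 8.08, 8.33, 8.20 and 8.43 in R140Q, and 7.93, 8.08, 8.16 and 8.02 in R172K hearts. Dnajc15 read 10.38, 10.46, 10.22 and 10.38 in control, 10.34, 10.29, 10.28 and 10.10 in R140Q, and 9.93, 10.02, 10.23 and 9.61 in R172K hearts. All R172K hearts lay below control for Dnajc19, and R172K 3 overlapped with the lowest control for Dnajc15. Dnajc19 fell by 0.32 ± 0.0864 (SE, limma adjusted p = 0.0303), and Dnajc15 by 0.41 ± 0.11 (adjusted p = 0.033). The Dnajc19 call ended without control 1 (adjusted p = 0.0601), control 2 (0.0869), control 3 (0.0777), R172K 1 (0.0935), R172K 2 (0.0575) or R172K 4 (0.061). The Dnajc15 call ended without control 1 (adjusted p = 0.0778), control 2 (0.0935), control 4 (0.0732), R172K 1 (0.0829), R172K 2 (0.0556) or R172K 4 (0.0597), and its difference from R140Q of -0.30 (adjusted p = 0.198) passed without R172K 3 (0.0357).

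**Figure D4:**
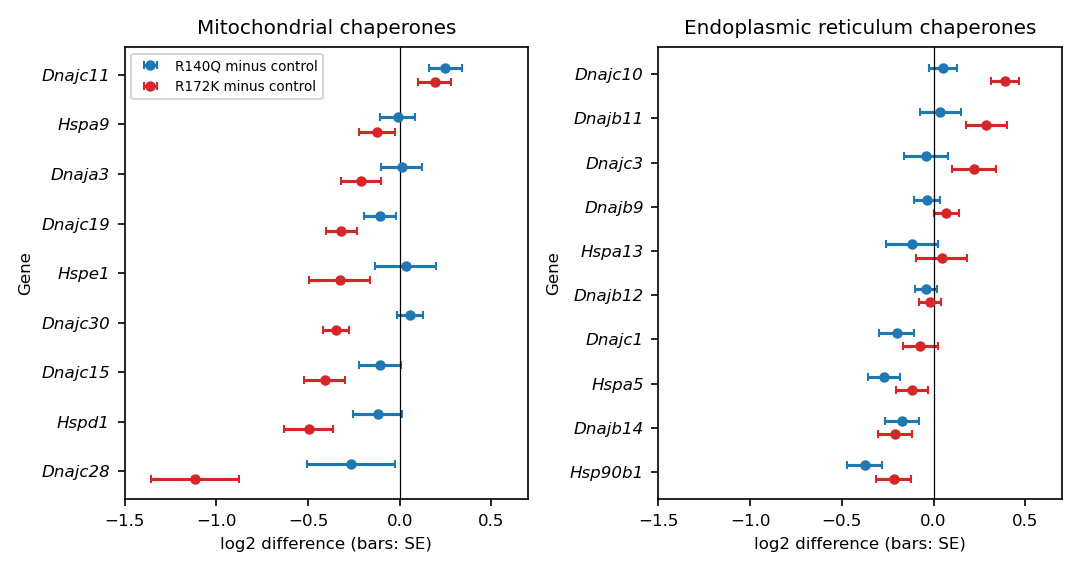
Log2 differences from control (horizontal axes, bars are SE) of 9 mitochondrial and 10 ER chaperone genes (vertical axes) for R140Q and R172K hearts, from 4 arrays a group. Of the mitochondrial genes, 8 of 9 lie below 0 in R172K hearts, down to -1.11 for Dnajc28, and of the ER genes 8 of 10 lie below 0 in R140Q hearts.

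The 10 chaperone genes of the ER were also grouped by location after the values had been seen. They were Hspa5, Hspa13, Hsp90b1, Dnajb9, Dnajb11, Dnajb12, Dnajb14, Dnajc1, Dnajc3 and Dnajc10. The membrane J protein genes Dnajc16 and Dnajc25, described below, fell in R172K hearts and were not placed in the group. The counts depend on that choice. In R172K hearts 1 of the 10, Dnajc10, rose and 0 fell (6.23% and 6.78% of all genes), with a median of 0.014. In R140Q hearts 8 of the 10 differences were negative (9798 of all 19937 genes), the median was -0.081, and none passed limma's test (2 had an unadjusted p under 0.05). Between the mutants 9 of the 10 differences were positive (9744 of all 19937 genes), with a median of 0.15, and Dnajc10 passed.

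Dnajc10 encodes ERdj5, which reduces disulfide bonds in misfolded ER proteins. It read 7.83, 7.80, 7.93 and 7.82 in control, 7.92, 7.91, 7.95 and 7.81 in R140Q, and 8.28, 8.09, 8.13 and 8.43 in R172K hearts, each R172K value above all others. The rise was 0.39 ± 0.0761 (SE, limma adjusted p = 0.00756), or 1.31-fold, and passed in each alternative tried, with values from 0.32 to 0.45. The difference from R140Q was 0.34 (adjusted p = 0.0498). That call ended without any 1 array other than R172K 3, at adjusted p-values from 0.0643 (without R172K 4) to 0.158 (without R172K 1).

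The ER lumen's main HSP70, BiP (Hspa5), and its HSP90, GRP94 (Hsp90b1), had their lowest values in R140Q hearts. Hspa5 read 11.57, 11.71, 11.50 and 11.53 in control, 11.20, 11.39, 11.37 and 11.28 in R140Q, and 11.55, 11.41, 11.24 and 11.64 in R172K hearts. Hsp90b1 read 11.32, 11.30, 11.06 and 11.05 in control, 10.76, 10.77, 10.76 and 10.93 in R140Q, and 11.04, 10.88, 10.79 and 11.16 in R172K hearts. In both genes all R140Q hearts lay below all control hearts, and R172K hearts overlapped with control. The R140Q differences were -0.27 ± 0.0881 (SE, limma adjusted p = 0.133) for Hspa5 and -0.38 ± 0.0946 (adjusted p = 0.0588) for Hsp90b1, so neither passed. Hsp90b1 passed without R172K 3 (adjusted p = 0.0334) or R172K 4 (0.0305).

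The ER stress response element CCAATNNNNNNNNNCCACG is the textbook binding site of ATF6 with NF-Y. Searched on both strands of the same RefSeq windows, it occurred in 0.119% of windows, in 0.137% of genes and in 3 of the 57 chaperone genes (5.26%), Hspa5, Hsp90b1 and Dnajc3. Among 91 partner genes described further on it occurred in 5 (5.49%), Calr, Canx, Creld2, Pdia6 and Syvn1. The stretches of these 3 chaperone genes are shown because they hold the motif, which is in capitals. They lie at chr2:34772020-34772049 (plus strand) for Hspa5, at chr10:86705632-86705661 and chr10:86705527-86705556 (minus strand) for Hsp90b1, and at chr14:118937822-118937851 (plus strand) for Dnajc3.
Hspa5: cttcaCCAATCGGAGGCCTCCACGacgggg
Hsp90b1, first: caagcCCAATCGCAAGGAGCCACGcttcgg
Hsp90b1, second (match on the other strand): gagtgCGTGGTGAGGCACGATTGGtgagtt
Dnajc3: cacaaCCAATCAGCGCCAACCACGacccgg
Dnajc3, an ER J protein that binds BiP, had a difference of -0.040 in R140Q (adjusted p = 0.918) and of 0.22 in R172K hearts (adjusted p = 0.278).

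Among the small heat shock proteins, 1 of 8 genes, Hspb7, rose in R172K hearts, where 6.23% of all genes rose, so the count says nothing particular about the family. Hspb7 is a cardiovascular member that binds the actin cross-linker filamin C. It read 12.56, 12.69, 12.81 and 12.74 in control, 12.88, 12.86, 13.06 and 12.95 in R140Q, and 13.17, 13.10, 12.85 and 13.12 in R172K hearts. All mutant hearts lay above all control hearts, with R172K 3 the lowest of them. The rise in R172K was 0.36 ± 0.0821 (SE, limma adjusted p = 0.0142), or 1.29-fold, and held without any 1 array. The R140Q difference of 0.24 (adjusted p = 0.15) did not pass.

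Hspb8, Hspb6 and Hspb1 had positive differences in both mutants that did not pass. Hspb8 (HSP22), the partner of BAG3 in chaperone-assisted autophagy, read 11.30, 11.48, 11.70 and 11.80 in control, 12.15, 11.80, 12.12 and 12.04 in R140Q, and 11.89, 11.84, 11.47 and 11.79 in R172K hearts. Its lowest R140Q heart stood just above the highest control heart. The R140Q difference was 0.46 ± 0.12 (SE, limma adjusted p = 0.0784; 0.0385 without R172K 3) and the R172K difference 0.17 (adjusted p = 0.419).

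Hspb6 (HSP20) read 13.19, 13.42, 13.33 and 13.35 in control, 13.46, 13.47, 13.65 and 13.44 in R140Q, and 13.45, 13.55, 13.29 and 13.53 in R172K hearts. Hspb1 (HSP27) read 11.40, 11.41, 11.49 and 11.33 in control, 11.65, 11.73, 12.001 and 11.40 in R140Q, and 11.67, 11.59, 11.44 and 11.54 in R172K hearts. R140Q hearts lay wholly above control for Hspb6 and overlapped with control for Hspb1. The R140Q differences were 0.19 (limma adjusted p = 0.244) and 0.29 (adjusted p = 0.175), and the R172K differences 0.13 (adjusted p = 0.314) and 0.15 (adjusted p = 0.401). Over the 8 small heat shock genes the median difference was 0.14 in each mutant, and in R140Q hearts none passed limma's test while 5 had an unadjusted p under 0.05.

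Of the 4 Dnaja genes, which encode J proteins with a zinc finger, Dnaja4 rose in R172K hearts, where 6.23% of all genes rose. It read 9.004, 9.35, 9.26 and 9.18 in control, 9.61, 9.63, 10.12 and 9.58 in R140Q, and 10.03, 9.90, 9.57 and 9.90 in R172K hearts. All 8 mutant hearts lay above all control hearts. The rise was 0.65 ± 0.13 (SE, limma adjusted p = 0.00877), or 1.57-fold, in R172K and passed in each alternative tried, with values from 0.58 to 0.76. In R140Q the difference was 0.54 ± 0.13 (adjusted p = 0.055) and did not pass; it passed without R172K 3 (0.0285) or R172K 4 (0.0429), which changes the pooled spread and not the R140Q values.

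None of the 13 Dnajb genes passed in any comparison by limma's test, and 1, 4 and 3 had an unadjusted p under 0.05 in R140Q, in R172K and between the mutants. Their R140Q differences ran from -0.23 to 0.25 and their R172K differences from -0.53 (Dnajb1) to 0.29.

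The Dnajc genes encode J proteins that have no other domain in common, and 10 of 28 changed in R172K hearts, 4 higher and 6 lower, where 13.0% of all genes changed. Between the mutants 3 of the 28 differed (1.48% of all genes). In R140Q 1 of the 28 fell, a share near the 2.20% of all genes that changed. Besides the mitochondrial and ER members above, these were Dnajc25, Dnajc16, Dnajc7, Dnajc8 and Dnajc5.

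Dnajc25, a little-characterised membrane J protein gene, fell in both mutants. It read 8.46, 8.58, 8.35 and 8.34 in control, 8.12, 8.08, 8.10 and 8.18 in R140Q, and 7.91, 8.02, 8.02 and 7.89 in R172K hearts. The 3 groups did not overlap. It fell by 0.47 ± 0.0673 (SE, limma adjusted p = 0.00196) in R172K, in each alternative tried, and by 0.31 ± 0.0673 (adjusted p = 0.0348) in R140Q. The R140Q call ended without control 1 (adjusted p = 0.105), control 2 (0.0994), control 3 (0.055), R140Q 1 (0.0893), R140Q 2 (0.0633), R140Q 3 (0.103), R140Q 4 (0.0533) or R172K 1 (0.0507). The neighbouring Gng10 had differences of 0.027 in R140Q (adjusted p = 0.898) and 0.048 in R172K hearts (adjusted p = 0.725).

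Dnajc16 encodes a membrane J protein with a thioredoxin-like domain. It read 9.16, 9.26, 9.13 and 9.26 in control, 9.28, 9.23, 9.20 and 9.34 in R140Q, and 8.92, 9.03, 8.95 and 8.98 in R172K hearts, each R172K value below all others. It fell by 0.23 ± 0.0587 (SE, limma adjusted p = 0.0227) against control, a call that ended without control 2 (0.0715), control 4 (0.0633) or R172K 1 (0.072). Against R140Q it was lower by -0.29 (adjusted p = 0.0406), a call that held among the single arrays left out only for R172K 3 and R172K 4 and otherwise ran from 0.054 (without control 3) to 0.138 (without R172K 1).

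Dnajc7 (TPR2) links HSP70 and HSP90, Dnajc8 is a splicing-associated J protein and Dnajc5 is the cysteine string protein of secretory vesicles. Dnajc7 read 9.15, 9.04, 9.14 and 9.09 in control, 9.09, 9.37, 8.99 and 9.17 in R140Q, and 9.80, 9.77, 9.35 and 9.29 in R172K hearts, so R172K 1 and R172K 2 stood well above the rest. Dnajc8 read 7.72, 8.24, 7.98 and 7.89 in control, 7.97, 8.28, 8.17 and 7.98 in R140Q, and 8.33, 8.29, 8.27 and 8.31 in R172K hearts, close together and just above the highest control. Dnajc5 read 9.57, 9.64, 9.83 and 9.77 in control, 9.996, 9.93, 9.96 and 9.95 in R140Q, and 10.001, 10.07, 9.81 and 9.90 in R172K hearts, of which R172K 3 overlapped with control. They rose in R172K by 0.44 ± 0.12 (SE, limma adjusted p = 0.0288), 0.34 ± 0.10 (adjusted p = 0.046) and 0.24 ± 0.0746 (adjusted p = 0.049).

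These 3 calls depended on single arrays. The Dnajc7 call ended without control 1 (adjusted p = 0.0577), control 2 (0.0781), control 3 (0.0531), control 4 (0.0635), R172K 1 (0.089) or R172K 2 (0.0809), and its difference from R140Q of 0.40 (adjusted p = 0.112) passed without R172K 3 (0.0392). For Dnajc8 the call ended without control 1 (0.129), control 3 (0.0797), control 4 (0.107), R140Q 1 (0.0529), R140Q 3 (0.0591), R140Q 4 (0.0551), R172K 1 (0.109), R172K 2 (0.0868) or R172K 4 (0.0836). For Dnajc5 it held without control 3 or R172K 3 and ended without any other single array, at values from 0.0614 (without R140Q 2) to 0.138 (without control 1).

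One R172K heart lay nearer to control than the others across these genes. Of the 8 genes that fell, R172K 3 was the R172K array nearest the control mean in 7, and of the 7 that rose it was the nearest in 5. Cell markers showed the same: of 19 non-atrial markers that changed in R172K hearts, R172K 3 was the nearest to control in 14. The fibroblast gene Postn read 10.24 there against 11.79 to 12.89 in the other R172K hearts, with a control mean of 9.07, and the ventricular Myl2 read 13.11 against 12.39 to 12.92, with a control mean of 13.33. R172K 3 also held the highest Myl7 of the R172K hearts. The part of cell makeup or atrial tissue in this was not tested.

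Several genes were read by more than 1 probe set, and their readings mostly moved together. The 3 Hsp90aa1 probe sets gave R140Q differences from 0.33 to 0.50 and R172K differences from -0.085 to 0.13. None of them passed in R140Q in the fit over all probe sets (limma adjusted p = 0.0652 to 0.128). Both probe sets of Hspd1 fell in R172K hearts, by 0.59 (limma adjusted p = 0.0395 over all probe sets) and 0.50 (0.0496). Those of Hspe1 (-0.33 and -0.31, adjusted p = 0.295 and 0.232) and Dnaja1 (-0.36 and -0.32, adjusted p = 0.252 and 0.123) did not pass. The 15 probe sets of Dnajc13, a J protein of endosomes, stayed between -0.10 and 0.11 in R172K hearts. Hspa8 was the exception. Its probe set with the highest mean was level across groups, whereas another, 10584572, read 11.98, 12.19, 12.27 and 12.03 in control, 12.75, 12.16, 12.86 and 11.95 in R140Q, and 13.01, 12.74, 12.88 and 12.72 in R172K hearts, with no overlap between R172K and control. That probe set rose by 0.72 ± 0.18 (SE, limma adjusted p = 0.0324 over all 34760 probe sets). Probe sets 10584576 and 10584578, numbered close to it, share the Hspa8 symbol with Snord14d and Snord14c and did not pass. Their R140Q differences were 0.42 (limma adjusted p = 0.416 over all probe sets) and 1.13 (0.159). Their R172K differences were -0.29 (0.49) and 0.51 (0.443). The probe set used, 10528021, is numbered far from 10584572, 10584576 and 10584578. Positions of the probe sets were not used here, so which reading reports the Hspa8 transcript was not tested.

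Dnajb6, a J protein that holds back aggregation of polyglutamine proteins, had a dim probe set of its own (a mean of 6.24 for control hearts, 6.004 for R140Q and 6.28 for R172K). Another 3 probe sets, which carry both its symbol and that of Gm4247, were brighter and rose in R172K hearts by 0.48 (limma adjusted p = 0.00871 over all probe sets), 0.47 (0.0497) and 0.49 (0.00988). Signal of the 2 genes cannot be told apart on them, and they are outside the counts above. A probe set shared by Hspa1a and Hspa1b read 8.40, 8.21, 10.07 and 9.30 in control hearts, with control 3 and control 4 again the highest of their group, 9.16 ± 0.32 (SD, n = 4) in R140Q and 8.57 ± 0.17 in R172K hearts, and did not pass.

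**Figure D5:**
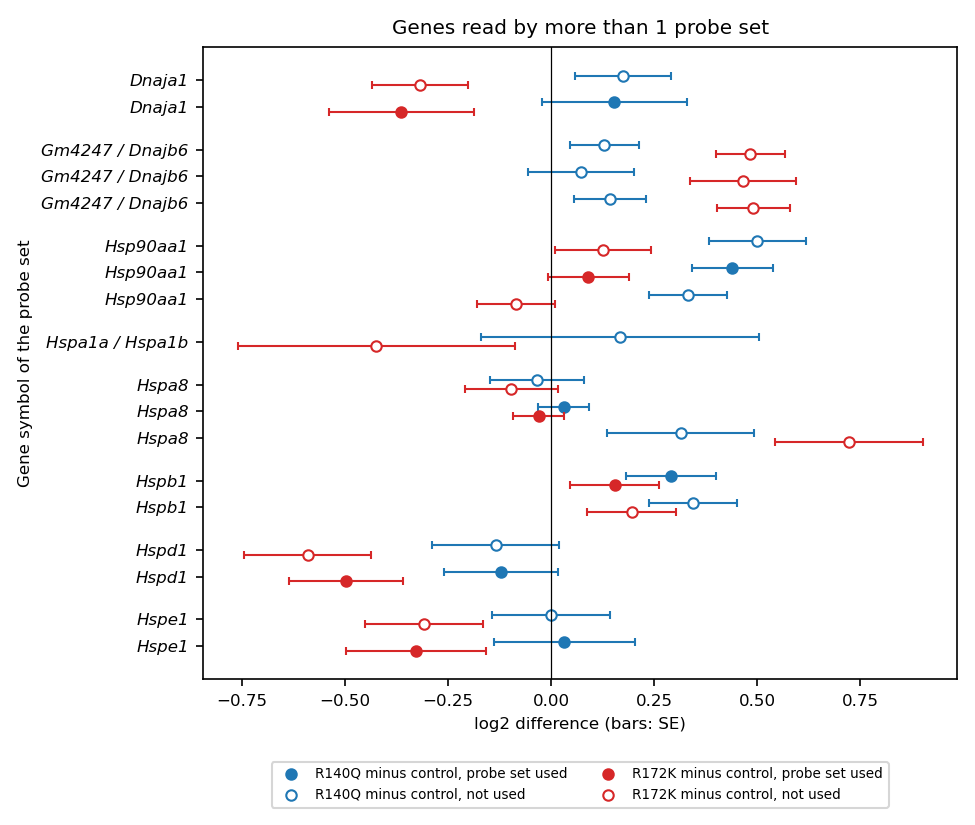
Log2 differences from control (horizontal axis, bars are SE) of single probe sets (vertical axis, by gene symbol) for R140Q and R172K hearts, from 4 arrays a group; filled points are the probe sets used for the gene. Probe sets of a gene lie close together except for Hspa8, where one not used lies at 0.72 in R172K hearts and the one used at -0.030.

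The partners of these chaperones were followed in 7 lists of 106 genes. Among 5 genes of heat shock factors and their binding proteins, none passed limma's test in any comparison and 0 had an unadjusted p under 0.05. Among 31 co-chaperones of HSP70 and HSP90, 1 rose and 6 fell in R172K hearts, 1 fell in R140Q hearts, and 3 were lower in R172K than in R140Q hearts. The background for all 7 lists is that given above, 13.0%, 2.20% and 1.48% of all genes.

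Fkbp4, the FKBP52 immunophilin of HSP90, read 9.64, 9.88, 10.001 and 10.13 in control, 9.40, 9.97, 9.26 and 9.60 in R140Q, and 8.35, 8.66, 9.48 and 8.37 in R172K hearts. Chordc1, a zinc-binding HSP90 partner, read 8.83, 8.88, 9.36 and 9.04 in control, 9.003, 8.79, 8.86 and 8.72 in R140Q, and 8.26, 8.17, 8.52 and 8.26 in R172K hearts. In both genes all R172K hearts lay below all control hearts. Fkbp4 fell by 1.19 ± 0.23 (SE, limma adjusted p = 0.00686) and Chordc1 by 0.72 ± 0.12 (adjusted p = 0.00333) in R172K. Unc45b, the myosin chaperone of striated muscle, fell by 0.54 ± 0.11 (adjusted p = 0.00903), and these 3 falls passed in each alternative tried. Aarsd1, whose muscle form binds HSP90, fell by 0.48 ± 0.10 in R172K (adjusted p = 0.011), without any 1 array too, and by 0.46 ± 0.10 in R140Q (adjusted p = 0.0397). The Aarsd1 call in R140Q ended without control 1 (0.0722), control 2 (0.114), control 3 (0.0992), control 4 (0.0682), R140Q 1 (0.111), R140Q 3 (0.127) or R140Q 4 (0.0784).

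Chordc1 was the 1 gene among 91 partners in the promoter table whose window held the 3-unit motif. That is 1.1%, against 0.662% of all genes, so the count says nothing particular about the partners. Its stretch is shown because it holds the motif and because Chordc1, like Hsph1, fell in R172K hearts. The stretch, chr9:18292260-18292289 on the plus strand, spans the annotated start and holds 3 overlapping matches.
Chordc1: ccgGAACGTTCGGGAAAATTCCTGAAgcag
Chordc1 was lower in R172K than in R140Q by -0.54 ± 0.12 (SE, limma adjusted p = 0.0453), as were Ahsa2 (-0.45, adjusted p = 0.0453) and Ahsa1 (-0.37, adjusted p = 0.0452), activators of the HSP90 ATPase. Leaving out single arrays ended these calls in most cases, with adjusted p-values up to 0.144 for Chordc1, 0.148 for Ahsa2 and 0.146 for Ahsa1, all reached without R172K 1; Chordc1 kept its call without control 3 or R172K 3, Ahsa2 without control 1, R172K 3 or R172K 4, and Ahsa1 without R172K 3.

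In the cytosolic chaperonin TRiC and its feeder prefoldin, with 15 genes, 3 rose and 1 fell in R172K hearts (6.23% and 6.78% of all genes). Cct8 rose by 0.44 ± 0.0872 (SE, limma adjusted p = 0.00781) in each alternative tried, and Pfdn6 fell by 0.43 (adjusted p = 0.0142), a call that held without any 1 array. Pfdn2 rose by 0.37 (adjusted p = 0.0322) and Pfdn1 by 0.36 (adjusted p = 0.0446). The Pfdn2 call ended without control 1 (0.0824), control 2 (0.09), control 4 (0.0627), R172K 1 (0.093) or R172K 2 (0.0786), and the Pfdn1 call held without R140Q 3, R140Q 4 or R172K 3 and ended without any other single array (0.0545 without R140Q 2 to 0.129 without R172K 1). In R140Q hearts 1 of the 15, Cct3, rose by 0.35 (adjusted p = 0.0481), a call that held without R172K 3 or R172K 4 and ended without any other single array (0.0642 without R172K 2 to 0.129 without R140Q 1).

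Of 19 other mitochondrial chaperones and proteases, 2 fell in R172K hearts and 0 rose (6.78% and 6.23% of all genes). These counts of calls say nothing particular about the list. At an unadjusted limma p under 0.05 there were 9 of the 19 in R172K hearts (5302 of all 19937 genes). Trap1, the mitochondrial HSP90, read 10.11, 10.18, 10.05 and 10.02 in control, 9.81, 9.92, 9.59 and 9.84 in R140Q, and 9.39, 9.59, 9.74 and 9.27 in R172K hearts, so both mutants lay below all control hearts. It fell by 0.59 ± 0.10 (SE, limma adjusted p = 0.00449) in R172K in each alternative tried, and its R140Q difference was -0.30 (adjusted p = 0.146). Clpb, a disaggregase of the intermembrane space, fell by 0.46 ± 0.11 (adjusted p = 0.0153) in R172K, also without any 1 array. In R140Q hearts none of the 19 passed limma's test and 3 had an unadjusted p under 0.05. The median R172K difference of the list was 0.016, against -0.33 for the 9 mitochondrial heat shock and J protein genes.

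Of 20 further ER chaperones and quality control genes, 2 rose and 2 fell in R172K hearts (6.23% and 6.78% of all genes). In R140Q hearts 1 fell (1.12% of all genes). Calnexin (Canx), the lectin chaperone of the ER membrane, fell in both, by 0.34 ± 0.0685 (SE, limma adjusted p = 0.0254) in R140Q and by 0.26 ± 0.0685 (adjusted p = 0.0256) in R172K. Ppib, the ER cyclophilin that assists collagen folding, rose by 0.74 ± 0.18 (adjusted p = 0.0211), and Edem1, of ER-associated degradation, by 0.46 ± 0.13 (adjusted p = 0.0317) in R172K. Herpud1, of the same degradation route, fell by 0.99 ± 0.27 (adjusted p = 0.029), although R172K 3, at 11.71, lay within the control range of 11.40 to 11.93 and the other R172K hearts between 10.20 and 10.46. Among 10 ER stress factors 1 rose in R172K hearts, Eif2ak3 (the PERK kinase) by 0.28 ± 0.0824 (adjusted p = 0.0414), and none passed limma's test in R140Q hearts (2 at an unadjusted p under 0.05).

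Each of these ER calls depended on single arrays. The Canx call in R140Q ended without any 1 control array (adjusted p = 0.0829, 0.081, 0.0597 and 0.0501 without control 1 to 4), R140Q 1 (0.0776), R140Q 3 (0.0843) or R140Q 4 (0.0503), and that in R172K without control 1 (0.0644), control 2 (0.071), control 4 (0.0523), R172K 1 (0.0537) or R172K 2 (0.0719). For Ppib the call ended without control 1 (0.0607) or R172K 1 (0.0639). Edem1 lost its call without control 1 (0.0877), control 2 (0.0833), control 3 (0.0526), R172K 1 (0.0739) or R172K 2 (0.0563), and Herpud1 without control 1 (0.0829), control 2 (0.0767), control 3 (0.0514), R172K 1 (0.0889), R172K 2 (0.0767) or R172K 4 (0.0723). Eif2ak3 lost it without control 1 (0.116), control 2 (0.0998), control 4 (0.0689), R140Q 1 (0.0563), R140Q 4 (0.0546), R172K 1 (0.112), R172K 2 (0.0557) or R172K 4 (0.0996).

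The last list held 7 genes around the crystallin small heat shock proteins and BAG3, the hub of chaperone-assisted autophagy in muscle. Filamin C (Flnc), a client of that pathway, rose in both mutants. It read 10.83, 10.72, 10.64 and 10.55 in control, 11.39, 11.54, 11.51 and 11.14 in R140Q, and 11.88, 11.81, 11.14 and 11.87 in R172K hearts, with no mutant heart as low as any control heart. The rise was 0.99 ± 0.15 (SE, limma adjusted p = 0.00286) in R172K, in each alternative tried, and 0.71 ± 0.15 (adjusted p = 0.0341) in R140Q. The R140Q call ended without control 1 (0.0758), control 2 (0.0852), control 3 (0.0848), control 4 (0.0763), R140Q 1 (0.0875), R140Q 2 (0.0638) or R140Q 3 (0.106).

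Synpo2, a BAG3 partner at the Z-disc, fell by 0.43 ± 0.12 (SE, limma adjusted p = 0.0389) in R172K hearts. Its call ended without any 1 control array (0.0732, 0.0897, 0.0751 and 0.0861 without control 1 to 4), R140Q 3 (0.0518), R172K 1 (0.0948), R172K 2 (0.106) or R172K 4 (0.0963). Bag3 itself, counted among the co-chaperones too, stood at 10.79 ± 0.074 (SD, n = 4) for control hearts, at 10.87 ± 0.17 for R140Q and at 10.99 ± 0.14 for R172K, with differences of 0.08 (adjusted p = 0.76) and 0.20 (adjusted p = 0.196). Cryab, the alpha-B crystallin, stood at 12.19 ± 0.085, 12.26 ± 0.13 and 12.31 ± 0.043 in the same order, with differences of 0.07 (adjusted p = 0.709) and 0.12 (adjusted p = 0.32).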

How the data were processed

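Total RNA of mouse heart was hybridised to 12 Affymetrix mouse Gene 1.0 ST arrays. The authors deposited 1 intensity per probe set and array, made with RMA per the submitters' processing notes (version not given in the sources used here). Because RMA evens out the arrays' distributions, it hides any shift that most genes share. The values are linear, as judged from their size, and log2 was taken with no pseudocount. Of 34760 probe sets, 21640 carried 1 symbol, which gave 19937 genes. Group means of all 12 arrays were fitted with limma 3.58.1 (lmFit, eBayes, two-sided) in R 4.3.3, with 9 residual and 3.54 prior degrees of freedom, and the script was tested on simulated data. The number of arrays limits the precision.

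The members and lists were chosen with earlier results of these data known. Genes named with values are those called in any comparison, a fixed set of well-known chaperones, and up to 4 called genes with the smallest p per list of partners. The few others named (Hspa4, Dnajc3, Dnajc11, Dnajc13, Dnajb6 and neighbouring genes) were picked with their values in view. Alternatives changed the arrays fitted, block, probe set choice, dim filter, normalization, variance model, weights and threshold. A fit over all probe sets was added after seeing the data. The closest arrays, control 1 and control 2, differed by 0.248 (root mean square, log2).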

Additional observations from a re-analysis of the deposited data

Results flagged for a closer look

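A single array far from the rest of its group was found in 4 of 84 groups of 4 arrays tested for 28 genes, and chance gives about 1 in 20. Dnaja4 read 10.12 in R140Q 3, the next highest R140Q array being 9.63. Hspb6 was highest in the same array, at 13.65 with the next at 13.47. Hsp90b1 read 10.93 in R140Q 4, the next being 10.77, and R140Q 4 is also the array with the high lung gene. Dnajc28 read 8.78 in control 2, the next being 8.62.

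R172K and R140Q hearts differed from each other, by limma's test of that difference, in 5 genes: Hsph1 (-1.75), Dnajc30 (-0.40), Hspa4l (-0.34), Dnajc16 (-0.29) and Dnajc10 (0.34).

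A rise in R172K hearts also appeared in probe sets that stand for no gene here. The probe sets shared by Gm4247 and Dnajb6 rose by 0.48 (probe set 10395976), 0.47 (10481868) and 0.49 (10585533), and the Hspa8 probe set 10584572 rose by 0.72.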

How the results depend on the processing

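For 70 differences of single genes, 49 of them called, 23 alternatives gave 1610 values, of which 1207 kept their side of the threshold, 371 lost the call, 32 gained it and 0 changed direction. The falls of Hsph1, Dnajc25 and Dnajc30 and the rises of Dnaja4 and Dnajc10 in R172K hearts passed in all of them, and Dnajc28 and Hspb7 lost their calls there only at an adjusted p under 0.01. Centring each array or quantile normalization moved the median of all genes to between -0.032 and 0.027 in log2. After centring, members split into 5 higher and 8 lower in R172K, 2 and 1 in R140Q, and 0 and 4 between the mutants, and after quantile normalization into 1 and 2 in R140Q.

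Counts of members, then of partner genes, called in limma's test moved as follows. Calls over all genes are not given for these alternatives, so the moves say nothing particular about either set. For R140Q (2 and 4 in the report) they were 6 and 10 with only the 2 groups in the fit, 10 and 13 with array weights, 0 and 0 at an adjusted p under 0.01, and 0 and 1 over all probe sets; members numbered 4 without dimmer genes and 0 without control 3, R172K 3 and R140Q 4. For R172K (15 and 20) they were 9 and 10 with 2 groups and 5 and 6 at 0.01; partner genes numbered 39 with weights and 13 over all probe sets. Between the mutants (5 and 3) they were 0 and 0 with 2 groups, 2 and 0 with an intensity trend, 15 and 15 with weights, 0 and 0 at 0.01, and 1 and 0 over all probe sets; partner genes numbered 7 without the 3 arrays. Unadjusted limma p-values under 0.05 were held by 17, 23 and 20 of the 70 members, and by 3394, 5302 and 3256 of all 19937 genes. Leaving out 1 array gave 0 to 5 members and 0 to 7 partner genes for R140Q, 7 to 20 and 9 to 32 for R172K, and 0 to 13 and 0 to 16 between the mutants. The 12 members dimmer than the median gene may lie near background.

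No pairing of arrays by replicate number was seen: 2 of 12 same-number pairs correlated above 0.1 (-0.336 to 0.152), and 3 of 12 arrays correlated best with their own number. The labels do not say what the number marks, and such correlations cannot exclude a pairing. With the number as a replicate block, members and partner genes called were 0 and 1 for R140Q, 12 and 13 for R172K, and 1 and 0 between the mutants.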
